A study of Mus musculus with 30 samples.

Results

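Across 69316 peaks of open chromatin in mouse T cells, 478 (0.690%) opened in regulatory T cells (Treg) lacking both Foxp3 and BATF when both factors were returned together, and with neither factor alone. They were chosen by their normalized scores in 8 libraries of double-knockout (DKO) Treg, 2 libraries for each of the mock, Foxp3, BATF and combined retroviruses. A site was taken when its mean score with both viruses was at least 30, its mean log2(score + 1) lay at least 1.5 above that with mock virus, and the change with each single virus stayed below 0.5. All 478 are 401 bp wide, and 4319 peaks met the first pair of criteria, so the sites make up 11.1% of the peaks that opened with both viruses. As comparators, 866 peaks opened with both viruses and also with BATF alone (at least 1.5, Foxp3 below 0.5), and 95 opened with both and also with Foxp3 alone.

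The DKO Treg carried the Foxp3KO-IRES-hCD2 allele and Batf-/-, and after the virus they were sorted from lymph nodes and spleen as CD4+hCD2+ cells that were CD45.2+CD45.1- and positive for GFP and Thy1.1. Their column names contain the word vivo, and no strain is given for them. In the other groups hCD2 reported Foxp3, and cells came from the same tissues of C57BL6/J mice. Wild-type (WT) Treg and BATFKO Treg were CD4+hCD2+ cells of Foxp3-IRES-hCD2 mice with intact Batf or Batf-/-, and conventional T cells (Tconv) were CD4+hCD2-. Central Treg (cTreg) were CCR7hi CD62Lhi CD44lo and effector Treg (eTreg) CCR7lo CD62Llo, and naive (Tnaive) and effector (Teff) conventional cells were their hCD2- counterparts. R397W Treg were CD4+hCD2+GFP- cells of the genotype Foxp3R397W-IRES-hCD2/Foxp3-IRES-GFP, so that mice also held Treg with an intact allele marked by GFP, and their control carried Foxp3WT-IRES-hCD2 in place of the mutant allele. By their titles the DKO and R397W libraries were made by omniATAC-seq and the others by ATAC-seq. Both assays use a transposase that inserts adapters into accessible DNA, and the score of a peak is its read number divided by 1 factor per library.

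Foxp3 is the forkhead transcription factor that defines Treg. BATF is a member of the AP-1 family that binds DNA as a dimer with a JUN protein, often beside interferon regulatory factors (IRF), and it is needed for the effector state of several T cell lineages. R397W is a substitution in the forkhead domain of Foxp3, through which the protein binds DNA. In Treg the effector state is an activated form that can leave lymphoid tissue, with loss of homing receptors such as CCR7 and gain of receptors such as KLRG1.

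Of the 478 sites, 18 overlapped the 250 bases before the start of an annotated gene (RefSeq, GRCm38.p6, the same build as mm10), in 20 such windows. The AP-1 motif, to which BATF dimers bind, was searched in the loose form TGANTCA, with any base at N. These letters stood in 3 of these 20 windows (15%), against 6.75% of all 32851 windows and 4.28% of those under any peak. The forkhead letters (TGTTTAC) stood in 1 (5%), against 3.17% and 2.17%. The 4 windows with either motif are shown because they are the only windows overlapping these sites that hold the letters of a returned factor's motif. In the Gm30957 window the first match, TGACTCA, ends just before the site, which starts at 8946706. Only the second match, the looser TGATTCA, lies under the site. Both strands were searched, and capitals mark each match. The sites also reach outside these windows, where the sequence was not used here.
Il17rb, chr14:30008897-30009146, minus strand: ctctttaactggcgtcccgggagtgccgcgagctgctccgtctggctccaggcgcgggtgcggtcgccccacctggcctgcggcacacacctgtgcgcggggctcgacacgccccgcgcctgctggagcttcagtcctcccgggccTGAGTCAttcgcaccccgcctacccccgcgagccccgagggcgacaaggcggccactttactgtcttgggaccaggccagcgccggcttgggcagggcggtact
3300005D01Rik, chr17:5798407-5798656, plus strand: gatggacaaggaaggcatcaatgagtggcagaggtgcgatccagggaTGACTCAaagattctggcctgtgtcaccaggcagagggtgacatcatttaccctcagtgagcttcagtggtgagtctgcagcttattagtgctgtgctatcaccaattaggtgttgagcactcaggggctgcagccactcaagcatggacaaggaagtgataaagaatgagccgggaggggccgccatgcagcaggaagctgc
Gm30957, chr2:8946686-8946935, plus strand: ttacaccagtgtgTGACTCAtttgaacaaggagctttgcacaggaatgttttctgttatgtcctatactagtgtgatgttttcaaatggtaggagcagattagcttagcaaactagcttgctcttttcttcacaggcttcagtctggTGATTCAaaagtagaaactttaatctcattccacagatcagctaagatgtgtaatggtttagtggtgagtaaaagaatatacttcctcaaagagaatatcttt
Rassf6, chr5:90640528-90640777, minus strand: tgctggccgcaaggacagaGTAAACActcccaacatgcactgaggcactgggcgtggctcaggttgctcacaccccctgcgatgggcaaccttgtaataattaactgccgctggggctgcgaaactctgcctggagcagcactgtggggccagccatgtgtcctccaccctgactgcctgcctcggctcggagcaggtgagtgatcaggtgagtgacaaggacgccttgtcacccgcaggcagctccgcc

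Il17rb encodes a receptor chain for IL-25, and its window lies wholly inside a site that it shares with the divergent gene Chdh, a choline dehydrogenase. Rassf6 encodes a Ras association domain protein, and its window lies wholly inside its site. The ETS letters AGGAAGT stood in 5 of the 20 windows (25%, against 7.69% of all and 8.07% under any peak), the RUNX letters TGTGGTT in 1 (5%, against 4.4% and 3.47%) and the IRF letters GAAANNGAAA in none (2.98% and 2.49%). AP-1 letters directly after GAAA, or 4 bases after TTTC, the spacings known for BATF with IRF, stood in none of the 20 windows and in 0.101% and 0.0974% of all. These matches are descriptions of 20 windows, and 460 of the sites overlap no such window.

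Each library held 3716499 to 25462278 reads in peaks, and each DKO library 7647075 to 13084571. No label says that the pair of libraries in a group came from separate animals, so p-values measure only the spread between samples, which may be technical. A second deposited table of 22 libraries shares 18 libraries with the table of 26 used here and gives 12 of them other names. There the libraries named eTreg and cTreg here are called WT Treg and R397W Treg, Teff and Tnaive are Foxp3KO Treg and WT Treg, and R397W Treg and its control are eTreg and cTreg. The libraries called WT Treg, BATFKO Treg and Tconv have the same names in both tables. Peaks at defining genes were read under the names used here. At 6 Treg genes, among them Foxp3, Il2ra and Ctla4, 102 peaks summed to scores of 7331 and 7375 in Tnaive, 8563 and 8841 in Teff and 6170 and 7121 in Tconv, against 13232 to 13874 in eTreg and cTreg. At 5 genes of naive and central cells, among them Tcf7, Lef1 and Ccr7, 79 of 115 peaks were lower and 3 higher in eTreg than in cTreg, and 82 were lower and 4 higher in Teff than in Tnaive. A Batf peak with 523 reads in WT Treg held 0 in BATFKO Treg and 0 to 8 in each DKO group, the groups with BATF virus included, so it does not check for the virus. The 5 peaks at Foxp3 did not separate the Foxp3 virus either, with changes from −0.55 to 0.42 with Foxp3 virus.

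In DKO Treg the typical site was at a low level with mock virus, stayed there with either factor, and stood about 4 times higher with both. The median of the group mean scores over the 478 sites was 13.2 in mock-treated DKO Treg, 13.5 after Foxp3, 14.2 after BATF and 56.0 after the pair. Since these values chose the sites, they are given without a test. The change with both viruses ran from 1.5 to 5.45 (log2(score + 1), median 1.95), and the median change was 0.05 with Foxp3 and 0.19 with BATF. At 476 of the 478 sites both libraries with both viruses lay above all 6 other DKO libraries, which held for 10189 of all peaks (14.7%). The same libraries chose the sites, so nothing is read from this count. The exceptions were a site in Prkd3, which encodes a protein kinase, and a site on chromosome 9 with no gene within 100 kb.

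**Figure D1:**
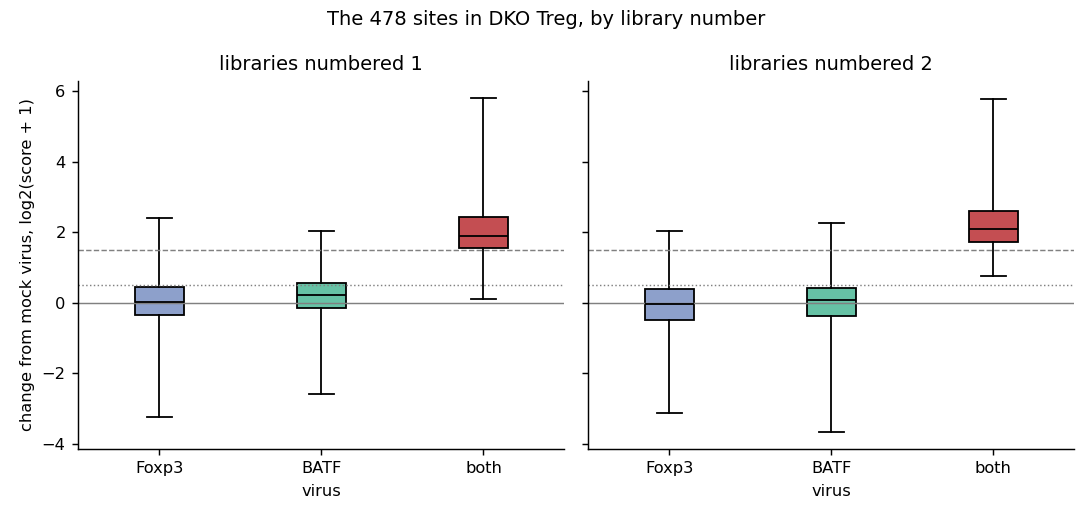
Change of the 478 sites from mock virus in DKO Treg with Foxp3, BATF or both (log2(score + 1)), for the libraries numbered 1 (left) and 2 (right). Boxes span the quartiles with the median, whiskers the whole range, the dashed line is 1.5 and the dotted line 0.5. With both viruses the medians are 1.90 and 2.11, and single-virus ranges reach 2.41.

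Taken by library number, which no label ties to a shared animal or day, the median change with both viruses was 1.90 in the libraries numbered 1 and 2.11 in those numbered 2. The single-virus medians were 0.03 and −0.03 with Foxp3 and 0.22 and 0.07 with BATF. The criteria on the changes were met within the first set by 182 sites, within the second by 262 and within each of them by 90. The score criterion was not applied within a set. The median site held 26 reads over both mock libraries, 21 over the Foxp3 pair, 26 over the BATF pair and 106 over the combined pair. Sites just inside the thresholds differ little from peaks just outside. A site near Ptafr was kept at a Foxp3 change of 0.4998 and a peak near Cpm left out at 0.5007. The Agpat4 site was kept at a BATF change of 0.4953, and a peak near Vps13b left out at a combined change of 1.499.

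Levels at genes of other cell types also differed between the DKO groups. Summed scores at 8 peaks of B cell genes, at Pax5 and Blk, were 253 and 261 with the mock vector, 386 and 428 with Foxp3, 400 and 444 with BATF, and then 552 and 663 with both. The same peaks summed to 787 and 771 in eTreg and 138 and 158 in cTreg, and 7 of the 8 were called higher in eTreg. In Teff they summed to 408 and 390 and in Tnaive to 110 and 97.2. These peaks therefore do not tell B cells apart from effector T cells here. Summed scores at 15 peaks of 4 myeloid genes that are not among the sites were 829 and 976 with mock virus and 1146 and 1201 with both. They were 784 and 769 with Foxp3 alone and 972 and 943 with BATF alone. Summed scores at CD8 and NK cell genes were 3722 and 3996 with mock virus against 3048 and 3051 with both, and at erythroid genes 798 and 807 against 637 and 601. With Foxp3 alone the CD8 and NK sums were 3755 and 3265, and with BATF alone 3289 and 3254. The erythroid sums were 740 and 781 with Foxp3 alone and 726 and 695 with BATF alone. No peak was assigned to the other 3 B cell genes, to 1 myeloid gene (Csf1r) or to 2 erythroid genes. At the naive genes, summed scores were 21843 and 29557 with mock virus and 12948 and 16137 with both. With Foxp3 alone these sums were 19741 and 26090, and with BATF alone 18794 and 25353. At 97 peaks of 5 effector genes that are not among the sites, summed scores were 10048 and 11576 with mock virus and 13910 and 17637 with both. They were 9714 and 10877 with Foxp3 alone and 11284 and 12843 with BATF alone. The part of these differences in the choice of sites was not tested, and fewer cells of a type cannot be told apart from less open chromatin per cell.

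The highest scores with both viruses at sites with an assigned gene were at sites that were already open with mock virus. The site in Agpat4 (chr17:12205682-12206082), which encodes a lysophospholipid acyltransferase, scored 254 and 286 with the mock vector, 266 and 367 with Foxp3, 302 and 480 with BATF, and then 577 and 1027 with both. The site in Mov10 (chr3:104796427-104796827), which encodes an RNA helicase, scored 142 and 202, 173 and 170, 214 and 249, then 662 and 734 in the same order. At Mov10 the single viruses lay near or somewhat above mock virus and the combined pair stood well above them, as the rule required. At Agpat4 the second BATF library (480) came near the first combined library (577). The Agpat4 site lay close to 2 limits of the rule, with a BATF change of 0.4953 and a combined change of 1.509.

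Cfap61 (chr2:146197943-146198343), a gene of motile cilia, scored 112 and 160 with the mock vector, 129 and 150 with Foxp3, 140 and 202 with BATF, and then 502 and 713 with both. Near Acod1 (chr14:103033361-103033761), which encodes the enzyme that makes itaconate, the scores were 194 and 165, 182 and 207, 241 and 259, then 519 and 645. Near Fam126a (chr5:23894171-23894571), which encodes hyccin, part of a lipid kinase complex, they were 119 and 120, 143 and 181, 134 and 159, then 352 and 414. Of the 12 highest sites with a gene, 1 per gene, 6 more lay at Plekha6, Rps6ka2 (a ribosomal S6 kinase), Itgam (the integrin chain CD11b), Chrne (an acetylcholine receptor subunit), Poli (a DNA polymerase) and Amz2, with mean scores of both libraries from 325 to 369.

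The largest changes above the next highest DKO group were at sites with almost no reads in the other DKO libraries. In Eif2ak2 (chr17:78875156-78875556), which encodes the antiviral kinase PKR, the scores were 1.05 and 1.96 with the mock vector, 0 and 1.53 with Foxp3, 3.71 and 0 with BATF, and then 115 and 99.0 with both. In Hbs1l (chr10:21354693-21355093), a gene of ribosome rescue, they were 3.16 and 7.82, 3.23 and 7.67, 4.95 and 0.960, then 124 and 206. In Ntn1 (chr11:68336675-68337075), which encodes the guidance factor netrin 1, they were 1.05 and 0, 0 and 3.07, 0 and 0, then 39.8 and 54.1. These 3 sites were near empty in every DKO library but the combined pair. The sites in Srgap3, A4galt (a glycosyltransferase), Nid2 (a basement membrane protein), Bco2 (a carotenoid oxygenase) and Unc13b (a vesicle priming factor) had the same form, with combined means from 41.8 to 63.0.

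In T cells that did not enter the choice of sites, the sites were more open in effector than in resting populations of both lineages. The median of the group mean scores was 26.7 in eTreg, 19.6 in Teff, 19.0 in WT Treg, 15.8 in the R397W control, 15.5 in Tconv and in BATFKO Treg, 10.1 in cTreg, 9.88 in R397W Treg and 7.72 in Tnaive. Library medians crossed between WT Treg (20.2 and 18.4) and Teff (20.03 and 18.6), and among BATFKO Treg (14.9 and 16.4), Tconv (14.7 and 15.9) and the R397W control (14.9 and 15.4). Those of cTreg (10.7 and 9.92) lay just above those of R397W Treg (9.57 and 9.53). Over all peaks the group medians lay between 39.6 and 51.7, so the sites were less open than the typical peak in every group except DKO Treg with both viruses. For the DKO groups this follows in part from the rule. At 206 sites no group outside the DKO reached a mean score of 30. In eTreg a mean of at least 30 was reached at 44.56% of the sites and 66.45% of all peaks. Among the groups outside the DKO, eTreg had the highest mean at 215 sites, Teff at 71 and Tconv at 57. The counts of 206, 215, 71 and 57 were made at the sites only, with no share over all peaks. DKO Treg with both viruses stood above every group outside the DKO at 360 sites. Its libraries chose the sites, so nothing is read from that count.

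**Figure D2:**
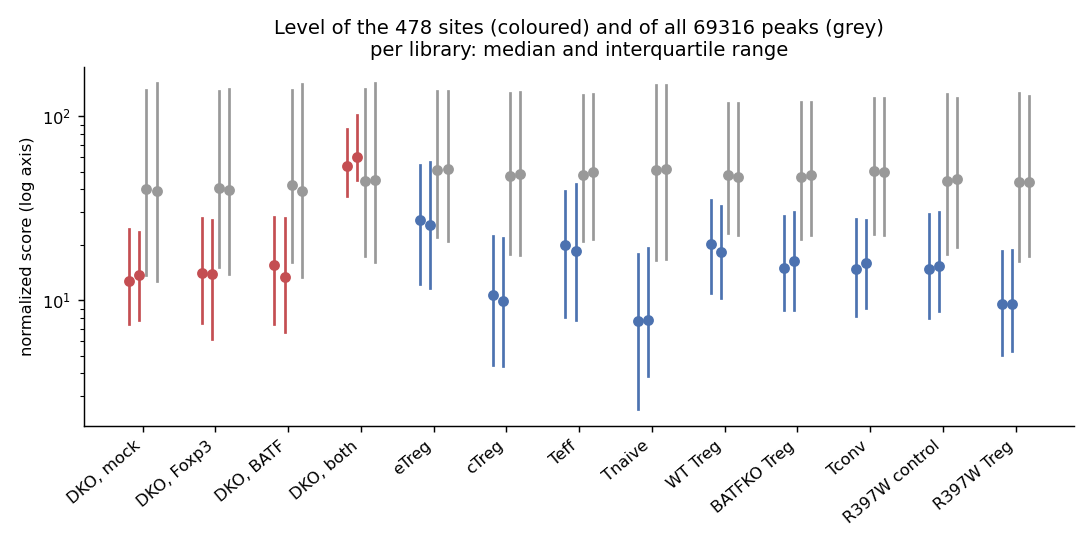
Normalized score (log axis) of the 478 sites (coloured) and of all 69316 peaks (grey) in each of 2 libraries per group, as the median (point) and interquartile range (line). The red groups chose the sites. Outside them the sites' medians are highest in eTreg, at 27.1 and 25.8, and lowest in Tnaive, at 7.66 and 7.77.

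Effector Treg were compared with central Treg, a contrast whose libraries the rule did not use. Of the 478 sites, 238 were higher and 14 lower in eTreg (limma, adjusted p below 0.05 over all peaks), against 19.7% of all peaks higher and 17.4% lower. The median change was 1.21 at the sites and 0.03 over all peaks (log2(score + 1)). Among the 12 sites with the highest combined score 11 were higher and none lower, with Itgam the exception, and among the 8 with the largest change 6 were higher and none lower. Of the sites that BATF also opened alone 741 of 866 were higher (median 2.67), and of those that Foxp3 also opened alone 54 of 95 (median 1.42). Of all 4319 peaks that opened with both viruses, the 478 sites included, 3084 were higher (71.4%, median 1.98). These shares were not tested against each other. By the group names of the 22-library table, given there to other libraries, 0 of 303 matched sites were higher and 55 lower (1.78% and 3.85% of all peaks), and the libraries compared here bear there the names of R397W Treg and a WT control.

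The Cfap61 site scored 291 and 348 in eTreg against 8 and 13.2 in cTreg, and its change was 4.82 (SE 0.30, adjusted p = 7.6e-13). At Snai2 (chr16:14705605-14706005, across the end of the gene), which encodes the transcription factor SLUG, scores were 165 and 156 against 4.44 and 4.41 (4.89, SE 0.35). Near Azin1, an inhibitor of antizyme, they were 372 and 392 against 38.2 and 44.1 (3.19, SE 0.20), and at the Acod1 site 419 and 383 against 62.2 and 69.4 (2.59, SE 0.20). No eTreg library overlapped a cTreg library at these sites.

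The Eif2ak2 site, nearly empty in all DKO groups but the combined one, scored 70.9 and 56.2 in eTreg and 6.22 and 1.10 in cTreg (4.04, SE 0.71, adjusted p = 3.4e-05). It also separated eTreg from Teff, at 5.22 and 12.7 (2.79, SE 0.71, adjusted p = 0.0051). The Hbs1l site, by contrast, scored 16.6 and 7.02 in eTreg and 6.22 and 1.10 in cTreg (1.61, SE 0.82, adjusted p = 0.13), against 124 and 206 in DKO Treg with both viruses. Ntn1 stayed at 5.51 or below in eTreg and cTreg. The size of the combined change in DKO Treg and the eTreg change had a correlation of 0.09 across the 478 sites, given as a description.

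The 14 sites lower in eTreg included one near Spesp1, a sperm protein gene (1.11 and 1.17 against 10.7 and 6.61; −2.14, SE 0.51), and one near Atp11b, a lipid flippase gene (16.6 and 25.8 against 56.9 and 56.2; −1.41, SE 0.32). Sites in Stx8, a SNARE gene (14.4 and 8.19 against 35.5 and 30.9; −1.52, SE 0.37), and Il31ra, the IL-31 receptor (6.65 and 8.19 against 28.4 and 29.8; −1.84, SE 0.48), were lower too. Without the second eTreg library the Stx8 call was lost (adjusted p = 0.051).

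The conventional lineage showed the same direction. Of the 478 sites 212 were higher and 21 lower in Teff than in Tnaive, against 20.7% and 19.6% of all peaks, with a median change of 0.93. The site 60 bp from Klrg1 (chr6:122270136-122270536), a receptor of terminally differentiated cells, scored 209 and 211 in Teff and had 0 reads in both Tnaive libraries, at least 54.5-fold higher with a floor of 3 reads per library. The Fam126a site scored 145 and 86.1 in Teff and 2.55 and 3.89 in Tnaive (4.76, SE 0.26), and the Acod1 site 366 and 368 against 34.5 and 53.1 (3.07, SE 0.20). In each the effector libraries lay far above both naive ones. Sites near Atp11b (9.58 and 14.7 against 56.2 and 51.8; −2.09, SE 0.32) and Spesp1 (13.9 and 4.89 against 76.6 and 93.3; −3.19, SE 0.51) were lower, as in Treg. Of the 238 sites higher in eTreg, 171 were among the 212 higher in Teff, 71.8% of the first and 80.7% of the second, against 70.4% and 66.8% over all peaks. Under the 22-library names 0 of 303 were higher and 76 lower (1.8% and 4.26% of all peaks), and the libraries compared here are there Foxp3KO Treg and a WT pair.

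The effector steps of both lineages were then compared directly. The change from cTreg to eTreg exceeded that from Tnaive to Teff at 7 sites and fell short of it at 6 (1.18% and 2.72% of all peaks), and with quantile scaling at 15 and 6 (1.6% and 3.68%). Without the first or second eTreg library, the first cTreg library or the second Teff library the called share fell from 2.72%. Without the first Tnaive library the share rose. Fewer of all peaks were called in each of these fits than with every library. At the Klrg1 site, with 162 and 101 in eTreg and 6.22 and 4.41 in cTreg, the difference of steps was −3.36 (SE 0.48, adjusted p = 5.2e-05), although its size depends on the pseudocount because Tnaive is at 0. The Fam126a site already scored 34.7 and 43.0 in cTreg, and its step was smaller in Treg by 2.27 (SE 0.37, adjusted p = 0.00029). The Azin1 site had the larger step in Treg (1.38, SE 0.28, adjusted p = 0.0031), with 196 and 215 in Teff and 53.6 and 62.2 in Tnaive.

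Treg and conventional cells were then compared at each state. In WT Treg 64 sites were higher and 10 lower than in Tconv, against 10.1% and 9.92% of all peaks, with a median change of 0.26. In cTreg 65 were higher and 14 lower than in Tnaive (8.8% and 7.82% of all peaks; median 0.18), and in eTreg 65 were higher and 13 lower than in Teff (8.4% and 9.07%; median 0.53). In the same order 381, 164 and 251 of the 866 sites that BATF alone also opened were higher, and 53, 46 and 61 of the 95 that Foxp3 alone also opened. Of all 4319 peaks that opened with both viruses, 1553, 983 and 1301 were higher. In either direction 15.5% of the sites were called between WT Treg and Tconv, 16.5% between cTreg and Tnaive and 16.3% between eTreg and Teff. With any 1 library of a comparison left out fewer sites were called, and fewer of all peaks as well.

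Near Abra (chr15:41914585-41914985), a gene of the muscle cytoskeleton, the scores were 100.2 and 85.7 in WT Treg and 4.90 and 6.82 in Tconv (3.79, SE 0.45, adjusted p = 2.7e-07). The same site scored 212 and 188 in eTreg and 13.1 and 15.7 in Teff (3.71, SE 0.45). In Lamc1, which encodes a laminin chain, WT Treg scored 22 and 29.6 and Tconv 1.63 and 2.27 (3.18, SE 0.45). The Lamc1 site also separated cTreg, at 18.7 and 19.8, from Tnaive, at 1.28 and 0 (3.75, SE 0.45, adjusted p = 3e-07). The Cfap61 site scored 117 and 106 in WT Treg and 21.2 and 18.2 in Tconv (2.45, SE 0.30). The Abra and Lamc1 sites were higher in Treg in all 3 of these comparisons, while cTreg and Tnaive scores at Cfap61 did not pass the test (0.44, SE 0.30, adjusted p = 0.39). The Spesp1 site was lower in WT Treg, at 15.9 and 9.19 against 78.4 and 45.4 (−2.21, SE 0.51), and lower in cTreg than in Tnaive (−3.18, SE 0.51).

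**Figure D3:**
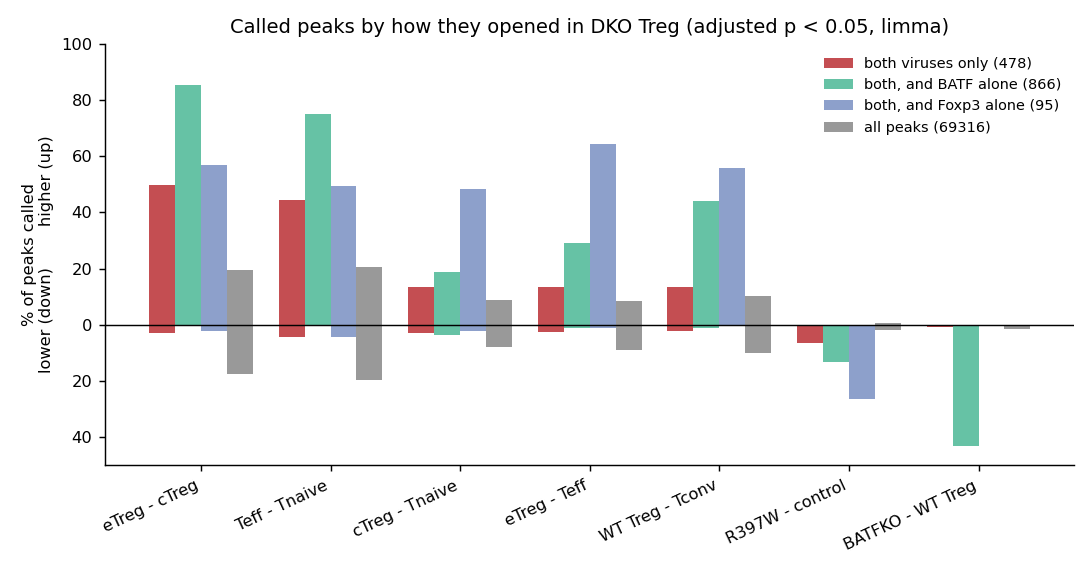
Share of peaks called higher (up) or lower (down) in 7 comparisons outside the DKO libraries, for the 478 sites opened only by both viruses, the 866 also opened by BATF alone, the 95 also opened by Foxp3 alone, and all 69316 peaks. In eTreg against cTreg the sites stand at 49.8% higher, between all peaks at 19.7% and the BATF set at 85.6%, and in BATFKO against WT Treg at 0.837% lower against 43.3% of the BATF set.

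Few of the sites were called as changed in unfractionated Treg lacking BATF. In BATFKO Treg 0 sites were higher and 4 lower than in WT Treg, against 0.062% and 1.43% of all peaks (limma). At an unadjusted p under 0.05 there were 69 sites, against 8.41% of all peaks. edgeR on the recovered reads called 18 lower and 0 higher (2.54% and 0.224% of all peaks), and quantile scaling gave 26 lower and 3 higher (2.9% and 0.727%). The median change was −0.26 at the sites and 0.03 over all peaks, and 147 of the 478 changes were positive. Of the 866 sites that BATF also opened alone 375 were lower, with a median change of −1.57, and of the 95 that Foxp3 also opened alone 0 were called, with a median of −0.01. Of all 4319 peaks that opened with both viruses 710 were lower (16.4%, median −0.71). The levels differ, since the median WT Treg score was 19.0 at the sites, 34.6 in the BATF set and 31.8 in the Foxp3 set.

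The 4 sites were at Bach2, at Blm and at 2 positions with no gene within 100 kb. Near Bach2 (chr4:32218375-32218775), which encodes a repressor of effector differentiation, WT Treg scored 33.0 and 32.7 and BATFKO Treg 8.30 and 10.1 (−1.74, SE 0.43, adjusted p = 0.028). In Blm (chr7:80473824-80474224), a DNA helicase gene, they scored 25.7 and 15.3 against 3.88 and 3.79 (−2.11, SE 0.52, adjusted p = 0.029). On chromosome 12 (chr12:54342707-54343107) they scored 26.9 and 25.5 against 3.32 and 6.32 (−2.27, adjusted p = 0.013), and on chromosome 2 (chr2:137224599-137224999) 40.3 and 27.6 against 5.54 and 2.53 (−2.84, adjusted p = 0.011). All 4 were also higher in eTreg than in cTreg, with eTreg means from 46.25 to 107.5. The Bach2 and Blm calls were lost without any 1 of the 4 WT and BATFKO libraries. Fewer sites were called without each of these libraries, and fewer of all peaks as well. At the Eif2ak2 site BATFKO Treg scored 2.21 and 5.05 and WT Treg 18.3 and 16.3, which missed the threshold (−2.05, SE 0.71, adjusted p = 0.215).

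In Treg with the R397W allele 31 sites were lower and 0 higher than in their control, against 1.85% and 0.776% of all peaks. The median change was −0.53 at the sites and 0.03 over all peaks, and 126 sites had an unadjusted p under 0.05, against 13.4% of all peaks. In the comparators 116 of 866 (median −0.91) and 25 of 95 (median −1.24) were lower. Of all 4319 peaks that opened with both viruses 618 were lower (14.3%, median −0.84). The number of calls depended on the libraries and the method. With any 1 R397W or control library left out fewer sites were called, and fewer of all peaks as well, so this drop was not particular to the sites. edgeR called 98 sites lower (5.98% of all peaks). Under the 22-library names 189 of 303 were lower and 11 higher (20.5% and 20.8% of all peaks), and there these names belong to the libraries called cTreg and eTreg here.

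At the Cfap61 site the control scored 48.9 and 51.5 and R397W Treg 5.07 and 7.77 (−2.81, SE 0.30, adjusted p = 3.9e-06). At the Klrg1 site they scored 29.3 and 27.4 against 3.94 and 3.53 (−2.63, SE 0.34), and at the Fam126a site 71.7 and 88.9 against 23.1 and 24.0 (−1.72, SE 0.26). At Upf3b on chromosome X, a gene of nonsense-mediated decay, they scored 55.0 and 57.5 against 8.44 and 12.4 (−2.35, SE 0.41). The Eif2ak2 site scored 17.4 and 18.1 against 2.81 and 1.06 (−2.74, SE 0.71, adjusted p = 0.029). Among the 12 sites with the highest combined score 7 were lower, including Mov10 (92.3 and 80.9 against 28.1 and 35.3). In each of these both R397W libraries lay below both control libraries.

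Peaks lower with R397W were mostly higher in eTreg, among the sites as among all peaks. Of the 31 sites, 29 were among the 238 higher in eTreg than in cTreg, 93.5% of the first and 12.2% of the second. Over all peaks 1160 of the 1283 lower with R397W were higher in eTreg (90.4%, and 8.51% of the 13632 higher in eTreg). These comparisons share no library. Of the 31, 1 was also lower in BATFKO Treg, the Bach2 site (56.1 and 66.2 in the control against 15.8 and 14.5 in R397W Treg; −1.94, SE 0.43). At the same effector gene peaks, summed scores were 9289 and 8268 in the control and 6105 and 6197 in R397W Treg. At the naive gene peaks they were 18140 and 15148 against 22195 and 19961. The part of this difference in the result was not tested. Over all comparisons outside the DKO libraries 330 of the 478 sites were called in at least 1, against 58.0% of all peaks, and 148 in none.

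**Figure D4:**
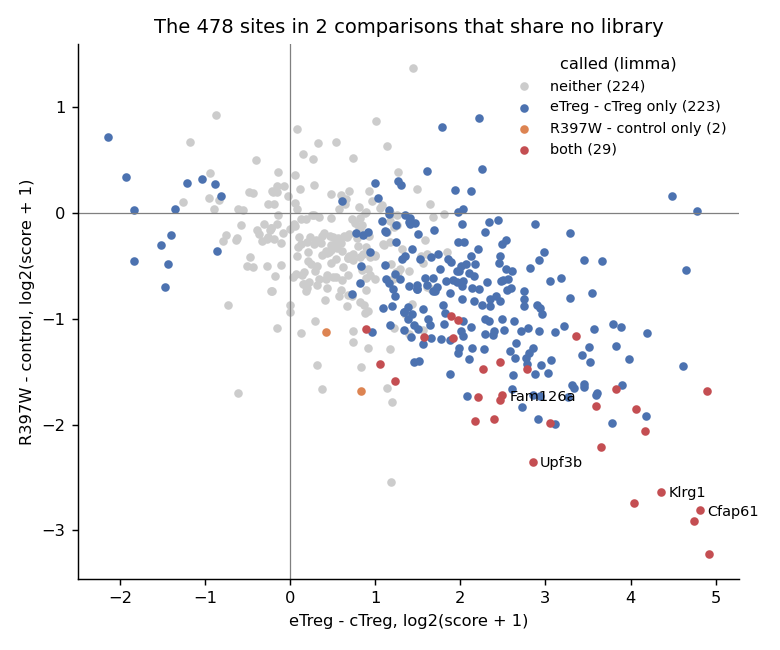
Change in eTreg against cTreg (x axis) and in R397W Treg against control (y axis) at the 478 sites, both on log2(score + 1), coloured by which comparison called them. The 29 sites called in both lie at the lower right, with Cfap61 at 4.82 and −2.81, and 224 sites were called in neither.

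Over all peaks 0.690% were among the sites, and the gene lists were described by their counts, without a test. Of 282 peaks at 18 genes of helper lineage factors 4 were among the sites (1.42%), at Id2, Rora, Runx1 and Runx3. Near Id2 (chr12:25155409-25155809), an inhibitor of E proteins, the scores were 68.5 and 70.4 with the mock vector, 94.7 and 90.6 with Foxp3, 94.0 and 92.2 with BATF, and then 219 and 287 with both. The Id2 site scored 264 and 248 in eTreg and 63.1 and 77.2 in cTreg (1.86, SE 0.28), and 152 and 138 in WT Treg against 40.8 and 68.2 in Tconv (1.44, SE 0.28). In Rora (chr9:69320037-69320437), which encodes a nuclear receptor, they were 8.43 and 14.7, 8.61 and 9.21, 17.3 and 5.76, then 57.3 and 65.6, and eTreg (17.7 and 26.9) lay above cTreg (6.22 and 3.31; 2.04, SE 0.48). Runx1 and Runx3, partners of lineage factors in T cells, missed the threshold in eTreg against cTreg (0.76, adjusted p = 0.088, and −0.20, adjusted p = 0.86).

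Of 235 peaks at AP-1, BATF and IRF family genes 3 were sites (1.28%), near Bach2, Irf1 and Irf8. The Bach2 site scored 5.27 and 9.78 with the mock vector, 7.53 and 3.07 with Foxp3, 8.66 and 8.64 with BATF, and then 44.7 and 39.1 with both, below the 106 and 90.1 of eTreg. Near Irf1, an interferon response factor, the scores with both viruses were 90.3 and 104 and those in eTreg 9.97 and 5.85, still above cTreg (3.56 and 0; 2.02, SE 0.54). Near Irf8 they were 49.5 and 57.6 with both viruses and 6.65 and 10.5 in eTreg. Of 454 peaks at naive and central T cell genes 2 were sites (0.441%), at Bach2, which is on both lists, and in Ets1. The site in Nfatc1, a factor activated by T cell receptor signals, scored 62.1 and 97.9 with both viruses against 10.5 and 10.8 with mock virus, and 24.4 and 17.6 in eTreg against 8.89 and 7.71 in cTreg (1.23, SE 0.44).

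At effector genes 4 of 332 peaks were sites (1.20%), assigned to Klrg1, Rora, Cd44 and Gzmb. The Klrg1 site scored 30.6 and 35.2 with the mock vector, 36.6 and 43.0 with Foxp3, 49.5 and 41.3 with BATF, and then 148 and 198 with both. Near Cd44, an adhesion receptor and activation marker, the scores were 8.43 and 2.93, 0 and 1.53, 4.95 and 9.60, then 36.9 and 46.1, while no other group had a library above 16.1. Of 244 peaks at cytokine and chemokine receptor genes 1 was a site, near Cxcr5, the receptor that guides cells to follicles (43.2 and 47.9 with mock virus, 146 and 131 with both). The Cxcr5 site scored 66.5 and 63.2 in eTreg and 14.2 and 11.0 in cTreg (2.28, SE 0.37). None of 260 peaks at Treg identity genes, 114 at effector cytokine genes or 197 at inhibitory and costimulatory receptor genes was a site.

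Itgam had 3 sites among its 10 peaks, in or near the gene for the myeloid integrin CD11b. At the highest (chr7:128050664-128051064) the scores were 53.8 and 115 with the mock vector, 68.8 and 93.6 with Foxp3, 59.4 and 96.0 with BATF, and then 258 and 446 with both. No group outside the DKO had a library above 42.4 there, and eTreg (21.1 and 18.7) and cTreg (13.3 and 11.0) did not differ by the test (0.67, SE 0.35, adjusted p = 0.14). Another Itgam site was lower in eTreg (9.97 and 1.17 against 18.7 and 16.5; −1.93, SE 0.54). None of the 3 was higher in eTreg or Teff, and this site and the remaining one were lower in Teff than in Tnaive (−1.95 and −1.56). The summed myeloid scores given above were also higher with both viruses, and their part in the Itgam sites was not tested.

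**Figure D5:**
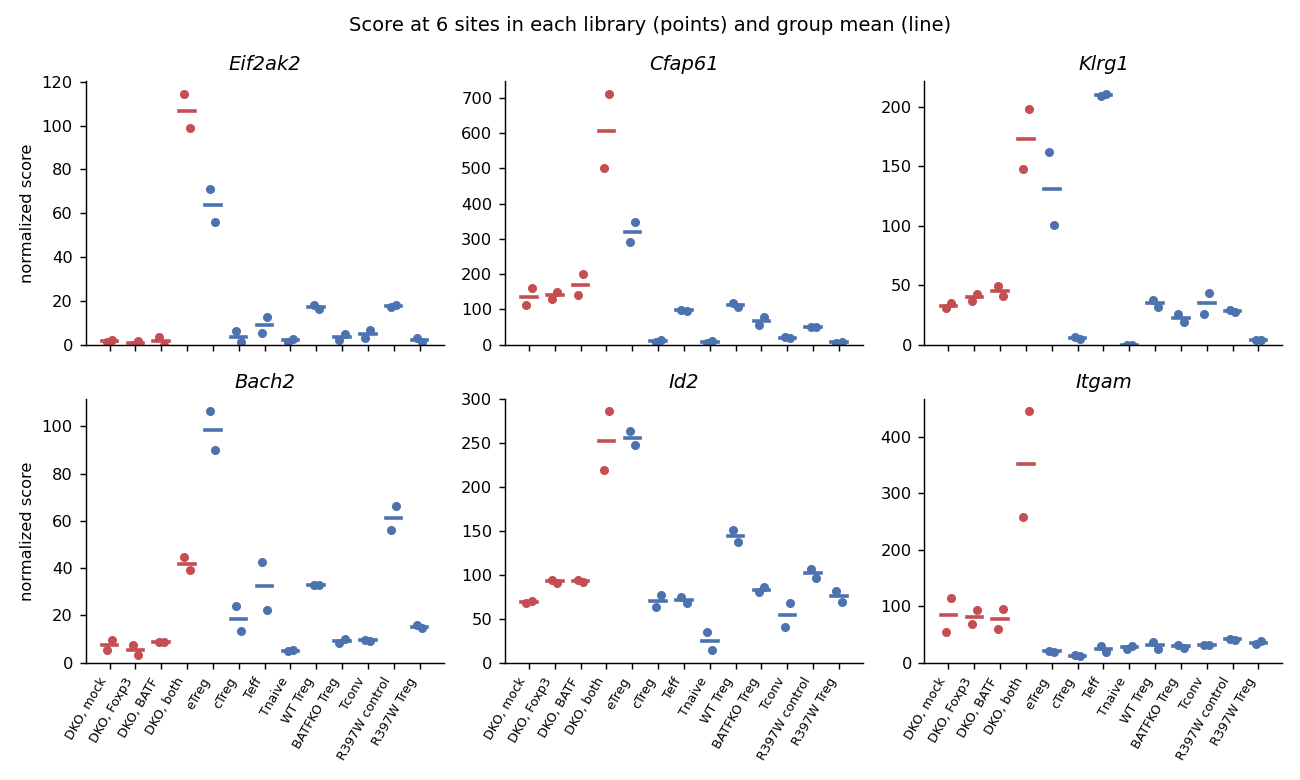
Normalized score in each library (points, 2 per group) and group mean (lines) at 6 sites, with the DKO groups that chose the sites in red. Eif2ak2, Cfap61, Klrg1, Bach2 and Id2 were all higher in eTreg than in cTreg. Itgam was highest in DKO Treg with both viruses, at 258 and 446, with the other DKO groups next.

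By position the sites lay away from gene ends. Within 1 kb of an end of a protein-coding gene there were 23 sites (4.81%), against 18.1% of all peaks, 3.12% of the BATF set and 3.16% of the Foxp3 set. The median distance was 18083 bp, against 12400 bp over all peaks, and 325 sites (68.0%) lay more than 10 kb from any gene end, against 54.6% of all peaks, 74.4% of the BATF set, 71.6% of the Foxp3 set and 70.4% of all peaks opened with both viruses. Inside a gene body there were 283 (59.2%, against 62.2% of all peaks), and for 26 no gene lay within 100 kb. Exons, introns and UTRs were not separated. The sites were assigned to 420 genes, and 55 had another site within 50 kb. They lay on all chromosomes from 1 to 19, with 47 on chromosome 11 (1.002% of its peaks), and on X with 3 (0.165%).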

How the data were processed

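ATAC-seq peaks of 13 groups of mouse T cells, with 2 libraries each, were analysed from the larger of a pair of deposited tables. The authors deposited a normalized score per peak and library (signal). Whole reads were recovered from it for 100% of values within 0.02 reads. Per the submitters' processing notes, mm10 was the build and the tools included DiffBind 3.0.15 and 3.4.11, edgeR 3.36.0 and 3.38.4, MACS2 2.2.7.1 and Bowtie2 2.4.1, with roles not given in the sources used here. Samples were grouped by their titles.

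The members, gene lists and tests were chosen with earlier results of these data known. Log2(score + 1) of all 69316 peaks was fitted with limma 3.58.1 (R 4.3.3) over the 26 libraries, with 13 residual degrees of freedom. Contrasts used libraries outside the DKO, and p-values were adjusted by Benjamini-Hochberg over all peaks and called below 0.05. No peak was filtered out. edgeR 4.0.16 on recovered reads was an alternative, and the scripts were tested on simulated data.

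Sites were assigned to the nearest of 21896 protein-coding genes (RefSeq) within 100 kb of its body. Named sites were the 12 highest with both viruses, the 8 with the largest change, up to 4 called per contrast and direction by smallest p without overlap, up to 3 per gene list, and the neighbours of each threshold, of which examples are given and some are not reported here. Sequences were read only from promoter windows, since no genome was used here, so motifs outside them were not searched. Foxp3KO Treg are not analysed here.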

Additional observations from a re-analysis of the deposited data

Results flagged for a closer look

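The change from cTreg to eTreg differed from that from Tnaive to Teff at 13 of the 478 sites by an interaction term (limma, adjusted p below 0.05 over all peaks), 7 larger and 6 smaller in Treg. Against 1.46% larger and 1.26% smaller at the sites, 1.18% of all peaks were larger and 2.72% smaller. The step was larger in Treg at a site in Gm21814, by 2.18 on the log2(score + 1) scale, where Teff scored 84.5 and 97.8, Tnaive 257 and 279, eTreg 332 and 363 and cTreg 213 and 234. It was larger near Azin1 by 1.38, in Tmem135 by 2.84 and in Trpm1 by 2.41. The Tmem135 site scored 98.6 and 91.3 in eTreg and 5.33 and 11.0 in cTreg, against 30.5 and 10.8 in Teff and 11.5 and 11.7 in Tnaive.

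In the other direction the difference of steps was −3.36 near Klrg1, −2.27 near Fam126a, −4.40 in Klk1b9 and −2.69 in Il31ra. The Klk1b9 site scored 86.2 and 74.3 in Teff and had 0 reads in Tnaive, at least 20.8-fold higher with a floor of 3 reads per library, while eTreg scored 6.65 and 9.36. The Klk1b9 call was lost without the second cTreg library (adjusted p = 0.097). The Tmem135 call was lost without 1 of 4 libraries, the Trpm1 call without 1 of 5 and the Il31ra call without 1 of 6, each left out in turn.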

How the results depend on the processing

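The share of the 478 sites called in either direction was recomputed under each alternative. Counts over all peaks are given beside it as higher and lower, of 69316 peaks unless another total is given. By the names of the 22-library table, which belong there to other libraries, the direction turned for eTreg against cTreg, from 238 higher and 14 lower to 0 higher and 55 lower, and for Teff against Tnaive, from 212 and 21 to 0 and 76. That table was run on 9 of the 54 named results, all in the comparisons of WT Treg with Tconv and BATFKO Treg, and no alternative run on a named result reversed it. In BATFKO against WT Treg the share of 0.837% became 2.51% with a pseudocount of 5, 6.07% with quantile scaling, 0% against a 1.5-fold change, 1.46% with only the groups compared, 1.65% in the 22-library table, 3.77% with edgeR and 0% at a mean score of at least 30. Over all peaks the main fit called 43 and 989. In the order of these alternatives the counts were 116 and 1484, 504 and 2007, 3 and 353, and 94 and 1276. They were then 77 and 1341 of 68597, 155 and 1759, and 26 and 779 of 45586. For R397W the share of 6.49% became 9.83% with a pseudocount of 5, 0.628% against a 1.5-fold change, 18.8% with only the groups compared, 66% in the 22-library table, 20.5% with edgeR, 2.08% with stricter members (a combined change of at least 2 and single changes under 0.25) and 16.7% at a mean score of at least 30. Over all peaks the main fit called 538 and 1283. A pseudocount of 5 gave 812 and 1974, a 1.5-fold change 9 and 91, and only the groups compared 2403 and 4168. The 22-library table gave 14254 and 14074 of 68597, edgeR 2250 and 4146, and a mean of at least 30 gave 510 and 1006 of 45586. The effector step (2.72%) gave 6.07% with a pseudocount of 5, 4.39% with quantile scaling, 0.837% against a 1.5-fold change, 4.18% with only its groups, 0% in the 22-library table, 1.04% with stricter members and 5.8% at a mean score of at least 30. WT Treg against Tconv (15.5%) gave 27% with quantile scaling, 6.07% against a 1.5-fold change, 38% in the 22-library table, 6.25% with stricter members and 30.4% at a mean of at least 30. Over all peaks the main fit called 7012 and 6878. Quantile scaling gave 10519 and 9677, and a 1.5-fold change 2718 and 2093. The 22-library table gave 14827 and 5852 of 68597, and a mean of at least 30 gave 5150 and 4967 of 45586. Against a 1.5-fold change and in the 22-library table, eTreg against cTreg gave 32.4% and 18.2%, Teff against Tnaive 30.5% and 25.1%, cTreg against Tnaive 7.32% and 0%, and eTreg against Teff 6.28% and 0%. Over all peaks, in the same order of comparisons, a 1.5-fold change gave 7873 and 5563, 8681 and 6306, 2758 and 1739, and 1718 and 2390. The 22-library table gave 1224 and 2640, 1235 and 2923, 1 and 4, and 0 and 4, of 68597. cTreg against Tnaive gave 29% at a mean of at least 30, and eTreg against Teff 34.1% with only its groups. The counts over all peaks were 4355 and 3702 of 45586 for the first and 10533 and 8851 for the second. The split at a mean of 30 was chosen after seeing the data, and its mean includes the DKO libraries that chose the sites, so it does not match levels in the groups compared. Why these shares moved was not tested, beyond the library names of the 22-library table.

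Leaving out 1 library at a time gave 0% to 0.418% for BATFKO, 1.26% to 2.93% for R397W, 8.79% to 12.8% for WT Treg against Tconv, 10.7% to 14.6% for cTreg against Tnaive, 9.83% to 11.3% for eTreg against Teff, 37.7% to 40% for eTreg against cTreg, 37.9% to 39.1% for Teff against Tnaive and 1.46% to 4.39% for the effector step. With a library left out, fewer of all peaks were called in each comparison than with every library. The rule itself gave 190 sites with a single-factor threshold of 0.25, 222 with a combined threshold of 2 and 225 with a score of at least 60, and 431 to 647 with a library left out. Of the 478 sites 279 and 283 were kept without the first and second mock library, and 354 to 437 without any other DKO library. With a pseudocount of 5 it gave 573 sites, 360 of them shared, and with quantile scaling 471, 274 of them shared. With library number as a replicate block, the shares were 16.3%, 52.5%, 48.3%, 16.7%, 15.9%, 0.837% and 2.93% for WT Treg against Tconv, eTreg against cTreg, Teff against Tnaive, cTreg against Tnaive, eTreg against Teff, BATFKO and the effector step. Same-numbered libraries had correlations of deviations from 0.04 to 0.16, and no label ties the numbers. The R397W contrast has no paired fit because its control columns carry no sample number. The median standard error was 0.51 at the sites and 0.34 over all peaks, and the sites also had lower scores.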
